A study of Homo sapiens with 8 samples.

Results

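The Kruppel-like factors (KLFs) are transcription factors that share a zinc finger domain at the carboxyl end. The genes described here are KLF2, KLF3, KLF4, KLF5, KLF6, KLF7, KLF9, KLF10, KLF11 and KLF13, taken by gene symbol from a deposited table of 20323 genes. Each of the 10 symbols matched 1 row, and all 10 were among the 12648 genes that passed the filter on low counts. RNA sequencing was done on H2452, an established cell line from a biphasic pleural mesothelioma, whose genotype the labels give as wt. Cells received 20 nM DPT (deoxypodophyllotoxin, a lignan that blocks microtubule assembly) for 48 h, or DMSO, the control, for the same time. There were 4 libraries per group, named biological replicates by the submitters. Nothing in the labels says whether they came from separate cultures or days, so p-values measure the spread between these libraries. All libraries are from 1 cell line, so nothing is measured across tumours, and in bulk RNA fewer cells with a message and less of it per cell cannot be told apart.

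KLF proteins bind GC-rich DNA, above all the CACCC box and related GC boxes, where they compete with the related SP factors. Their amino-terminal parts differ and set the partners. KLF2, KLF4, KLF5, KLF6 and KLF7 bind histone acetyltransferases and often activate, KLF3 binds the corepressor CtBP, and KLF9, KLF10, KLF11 and KLF13 bind the corepressor SIN3A. Several of the genes, among them KLF2, KLF4, KLF6 and KLF10, are known to respond within an hour or so to serum, stress or TGF-beta, and their messages are short-lived.

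Promoter sequence is shown for 3 genes the results turn on. KLF6 had the level that differed most between DPT and DMSO. KLF2 was high in a pair of libraries that stood apart, and the call of KLF7 depended on that pair. Each stretch lies upstream of a RefSeq start site (GRCh38.p14), was cut so that it holds no exon of the annotation used, and is written 5′ to 3′ on the gene's strand. Capitals mark matches on either strand to CACCC, to the GC box GGGCGG, to the MEF2 site or to the CArG box bound by SRF.

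KLF6, chr10:3785282-3785459, minus strand: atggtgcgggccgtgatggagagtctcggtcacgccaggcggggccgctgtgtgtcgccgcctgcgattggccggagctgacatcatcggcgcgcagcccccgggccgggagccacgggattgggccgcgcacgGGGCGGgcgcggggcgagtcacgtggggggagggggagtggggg

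KLF2, chr19:16324576-16324816, plus strand: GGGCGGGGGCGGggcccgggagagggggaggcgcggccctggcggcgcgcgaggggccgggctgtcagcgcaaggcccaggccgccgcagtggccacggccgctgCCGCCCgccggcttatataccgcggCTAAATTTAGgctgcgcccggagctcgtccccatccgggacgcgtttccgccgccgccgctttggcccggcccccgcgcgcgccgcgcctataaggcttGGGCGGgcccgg

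KLF7, chr2:207167268-207167496, minus strand: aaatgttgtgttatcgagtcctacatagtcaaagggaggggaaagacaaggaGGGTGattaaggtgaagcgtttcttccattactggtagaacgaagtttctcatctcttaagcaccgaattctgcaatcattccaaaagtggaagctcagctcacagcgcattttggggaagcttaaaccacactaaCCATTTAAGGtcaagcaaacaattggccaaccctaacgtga

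The KLF6 stretch held 1 GC box and the KLF2 stretch held 4, of which the first 2 stand side by side at its 5′ end. The KLF2 stretch also held 1 MEF2 site, the kind of element through which the kinase ERK5 is known to act on KLF2. The KLF7 stretch, from the most upstream of 4 RefSeq starts, held 1 CACCC box on the opposite strand and 1 CArG box. The windows of its other starts had no CArG box, and they held 4 GC boxes, 2 CACCC boxes and no match to these motifs in turn. A second GC box of the KLF6 window lies in annotated exon sequence and is not shown. Among the 250-base windows upstream of 35116 RefSeq starts, 54.7% held CACCC, 42.6% GGGCGG, 0.515% a MEF2 site and 1.16% a CArG box. The AP-1 site TGANTCA (6.57% of windows) and the CRE TGACGTCA (1.65%) had no match in these 3 stretches. These shares are for whole windows, while the KLF6, KLF2 and KLF7 stretches were cut to 178, 241 and 229 bases. RefSeq sequences were at hand for 8 of the 10 genes, not for KLF3 or KLF10. These are matches of letters, and binding was not measured.

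Library totals were 14964432 to 17205391 expected counts. A pair made of DMSO replicate 3 and DPT replicate 2 was far from the remaining 6 libraries, with scores of 40.76 and 29.26 on the first principal component against -25.6 to -1.02. A list of 10 interferon-stimulated genes summed to 1749 and 1143 CPM (counts scaled to library size) in the pair and 7252 to 7950 CPM in the others, and 10 mitosis genes to 2298 and 2408 CPM against 1324 to 1570 CPM. In both lists edgeR called 0 genes (0 at an unadjusted p under 0.05, 0 by DESeq2). With a term for the pair in the model 0 rose and 6 fell of the first list, and 3 rose and 2 fell of the second. That fit called 16.9% of all tested genes higher and 17% lower. Of 9 mesothelial markers 8 were tested and 2 were called lower in DPT. These were KRT18, a keratin (1171 ± 186.2 and 746.2 ± 117.2 CPM, adjusted p = 0.0149, edgeR), and UPK3B, a surface protein of mesothelium (3.83 ± 0.751 and 1.82 ± 0.515 CPM, adjusted p = 0.0271). The KRT18 call was lost if DPT replicate 3 or 4 was left out (0.0519 and 0.0561), and the UPK3B call if DMSO 1 or 4 or DPT 1 or 3 was (0.0648 to 0.0841). Both calls stood with a term for the pair (edgeR, adjusted p = 1.94e-08 and 0.00282) and without the pair (9.05e-09 and 0.0162). CALB2, the marker calretinin, went the other way, from 9.49 ± 2.54 to 14.3 ± 0.967 CPM, with every DPT library above every DMSO library. It was not called with all libraries (log2 0.59, adjusted p = 0.0555), and was by DESeq2 (0.0178), if the pair had its own term (0.00243) and if the pair was left out (1.76-fold, 6.3e-05). The last 2 fits called 1 of these markers higher and 5 lower. Over all tested genes the same fits called 16.9% and 17% higher, and 17% and 17.1% lower. MSLN was among the 5 (edgeR, adjusted p = 0.0196 with the term and 0.0251 without the pair). With all libraries it was not called (log2 -0.38, adjusted p = 0.129). The mesothelial list, of which KRT18 made up most, summed to 1304 to 1760 CPM in DMSO and 846.3 to 1157 CPM in DPT. MSLN and WT1 averaged 16.3 and 8.17 CPM in DMSO, KRT5 averaged 1.33 CPM, and HP had no counts there. The endothelial list summed to 6.19 to 10.1 CPM in DMSO and 8.21 to 16.6 CPM in DPT. Of 6 leukocyte markers, CD14 alone passed the filter (20.2 and 13.3 CPM in DMSO and DPT). It was not called with all libraries (log2 -0.59, adjusted p = 0.41, edgeR). It was called lower with a term for the pair (-0.59, adjusted p = 0.000151) and without the pair (-0.61, adjusted p = 0.000108).

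Levels can be compared between genes only per length, so the authors' FPKM values, which are scaled by gene length and library size, were used for that. In DMSO, KLF6 was the most abundant of the 10 (37.5 ± 3.48 FPKM, SD, n = 4) and KLF4 came next (29.9 ± 5.92 FPKM), with overlapping ranges. KLF3 (16.3 ± 2.17 FPKM), KLF2 (15.2 ± 5.28), KLF13 (14.4 ± 2.04), KLF10 (12.04 ± 2.23) and KLF7 (10.8 ± 1.57) followed, each overlapping its neighbour in this order. KLF11 was below them without overlap (7.51 ± 0.590 FPKM). KLF5 (2.39 ± 0.233) and KLF9 (2.32 ± 0.325) were lowest and overlapped. In DPT the first, second and the last 3 places were unchanged, and KLF6 stood clear of KLF4 (47.04 to 96.6 against 22.3 to 34.7 FPKM). By its mean KLF10 moved from the sixth to the third place (18.8 ± 1.45 FPKM). Its DPT range (17.47 to 20.87 FPKM) overlapped those of KLF2 (8.79 to 34.42), KLF7 (11.82 to 19.65) and KLF3 (13.41 to 18.73).

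**Figure D1:**
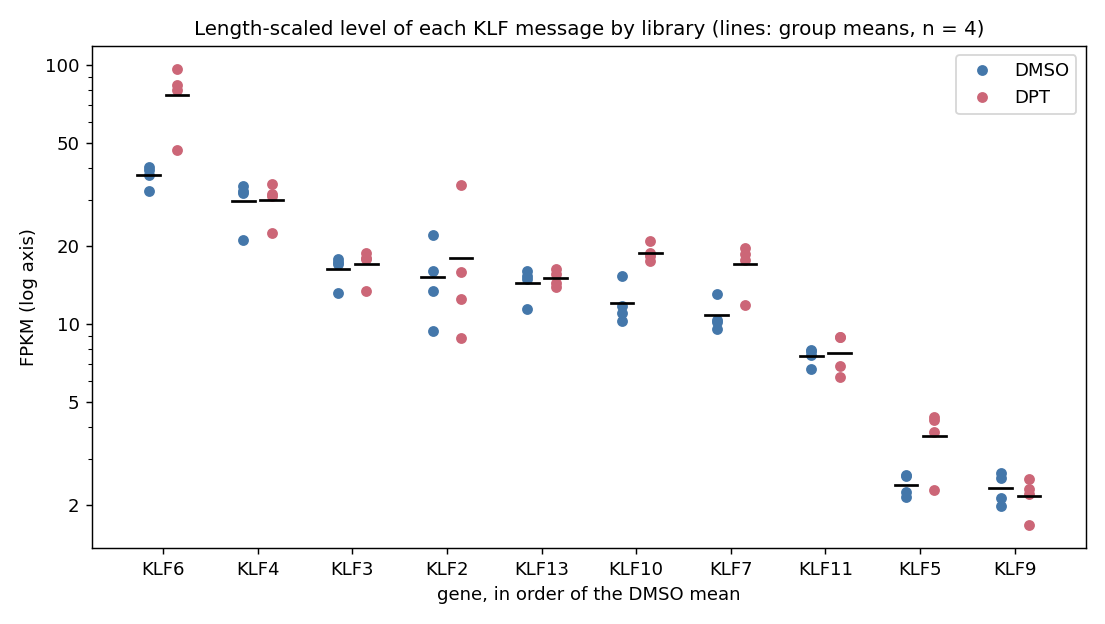
FPKM of each KLF gene (log axis) in the 4 DMSO and 4 DPT libraries, in order of the DMSO mean. Points are libraries and lines are group means. KLF6 and KLF4 lead in DMSO, and KLF5 and KLF9 lie near 2 FPKM.

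The length that the authors' FPKM values imply for a gene is its count divided by its FPKM and the library total. For KLF6, KLF4, KLF9 and KLF10 it varied by at most 1.02-fold over the 8 libraries, against a median of 1.10-fold over all tested genes. For KLF2 it ran from 1289 to 2507 bases, a 1.95-fold range that 4.63% of tested genes exceeded. In KLF7 it was 4599 to 5686 bases in DMSO and 4030 to 4581 bases in DPT, with no overlap between the groups. So the KLF2 and KLF7 levels in FPKM carry a length that changed between libraries. Tests below use counts.

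DPT was compared with DMSO to ask which messages differ after 48 h with a tubulin binder. KLF6 and KLF10 rose, and no member fell. A gene was called at a Benjamini-Hochberg adjusted p under 0.05 from edgeR's quasi-likelihood test over all tested genes. By that rule 11% of tested genes were called. Of the 10 members 2 were higher, where 5.68% of tested genes were, and 0 were lower, where 5.29% were. At an unadjusted p under 0.05, 4 members were higher, where 13.5% of tested genes were, and 0 lower, where 13% were. DESeq2, which called 14% of its genes (7.07% higher and 6.97% lower), called 2 members higher and 0 lower. The members' median log2 fold change was 0.16, against -0.002 over all tested genes. In KLF6 and KLF10 every DPT library lay above every DMSO library, a separation upward that 9.5% of tested genes had, and the reverse, which 8.73% had, was seen in no member. With a term for the pair of libraries in the model, 5 members (KLF2, KLF5, KLF6, KLF7 and KLF10) were higher and 0 lower, where 16.9% and 17% of tested genes were (34% in all). Without the pair, 4 were higher (KLF5, KLF6, KLF7 and KLF10; 17% of genes) and 0 lower (17.1% of genes), where 34.1% were called in all.

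**Figure D2:**
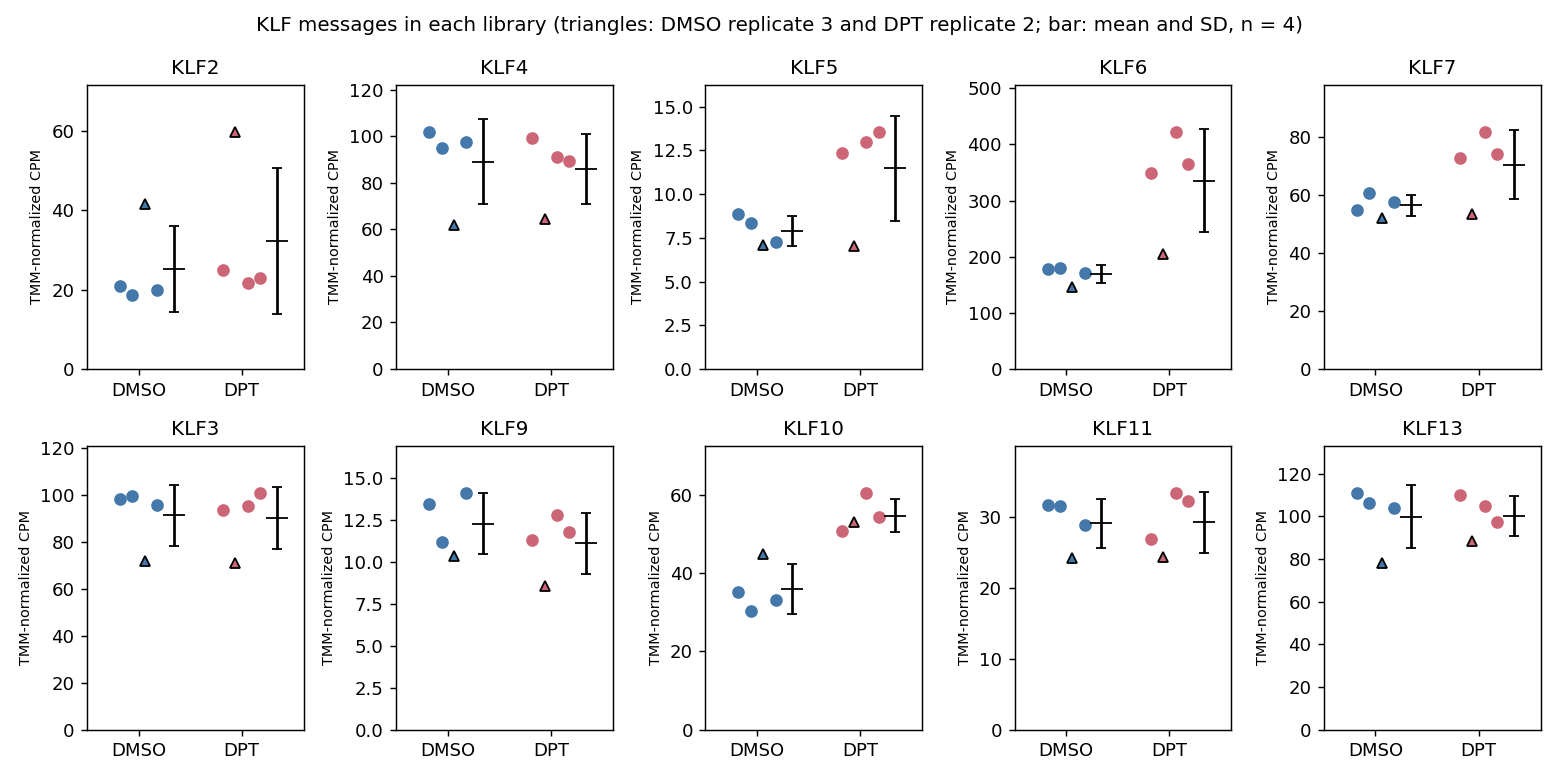
TMM-normalized CPM of each KLF gene in every library, with group mean and SD (n = 4). Triangles are DMSO replicate 3 and DPT replicate 2. KLF6 and KLF10 are the 2 panels in which the groups do not overlap, and in KLF2 both triangles lie far above the other points.

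KLF6 (ENSG00000067082, chromosome 10, 3775996 to 3785281, minus strand of GRCh38) encodes a factor first known for binding core promoter elements and studied as a growth suppressor. Its level was 178.5, 179.2, 145.4 and 170.6 CPM in DMSO replicates 1 to 4. In DPT replicates 1 to 4 it was 349.1, 205.2, 421.6 and 365.5 CPM. The lowest DPT library, replicate 2, was above the highest DMSO library, and the other 3 were far above it. The mean went from 168.4 ± 15.9 to 335.3 ± 92.2 CPM (SD, n = 4 per group), and the fold of 1.99 had a log2 value of 0.99 with an SE of 0.189 (adjusted p = 0.0114, edgeR). Within the pair, DPT replicate 2 was 1.41-fold above DMSO replicate 3. In the other 6 libraries the rise was 2.15-fold (log2 1.10, SE 0.0587, adjusted p = 2.86e-10). Whether these folds differ was not tested, since the pair holds 1 library of each group.

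KLF5 (ENSG00000102554, chromosome 13, 73054976 to 73077542, plus strand) encodes a factor that drives proliferation in epithelial and smooth muscle cells. Its level was 8.87, 8.34, 7.07 and 7.25 CPM in DMSO replicates 1 to 4 and 12.4, 7.01, 13.0 and 13.5 CPM in DPT replicates 1 to 4. DPT replicate 2 was the lowest of all 8 libraries and the other 3 DPT libraries were the highest, so the groups overlapped. The log2 fold change of 0.54 (SE 0.201) was not called with all libraries (adjusted p = 0.119). It was called without the pair (0.67, adjusted p = 0.00044), when a term stood for the pair (0.51, adjusted p = 0.00632) and without DPT replicate 2 alone (0.72, adjusted p = 0.00428). KLF5 had 110 to 221 counts per library, the fewest beside KLF9.

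KLF7 (ENSG00000118263, chromosome 2, 207074137 to 207167267, minus strand) is known for its part in the growth of neurons and fat cells. It measured 55.0, 60.9, 52.1 and 57.8 CPM in DMSO replicates 1 to 4 and 72.8, 53.6, 81.7 and 74.1 CPM in DPT replicates 1 to 4. DPT replicate 2 lay within the DMSO range and the other 3 DPT libraries above it. The log2 fold change was 0.32 (SE 0.1196), not called with all libraries (adjusted p = 0.119). It was 0.40 without the pair (adjusted p = 0.000101), 0.31 if the pair had its own term (adjusted p = 0.00213) and 0.43 without DPT replicate 2 alone (adjusted p = 0.00457). On the log2(FPKM + 1) scale the difference was 0.59 (limma, adjusted p = 0.0466), and FPKM carries the implied length that differed between the groups. The intronic transcript KLF7-IT1 and the microRNA MIR2355 lie on its strand, and their reads may not be separated.

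KLF2 (ENSG00000127528, chromosome 19, 16324817 to 16327874, plus strand) is best known in endothelial cells under flow and in resting T cells. It measured 21.0, 18.6, 41.5 and 19.8 CPM in DMSO replicates 1 to 4 and 24.8, 59.6, 21.7 and 22.9 CPM in DPT replicates 1 to 4. DMSO replicate 3 was 2.09-fold and DPT replicate 2 was 2.58-fold above the mean of the other 3 of its group. Both ratios exceeded the 1.28-fold difference between the group means, and the spread within groups was 43.1% (DMSO) and 56.7% (DPT) of the mean. The log2 fold change of 0.35 had an SE of 0.373 (adjusted p = 0.604). A model with its own term for the pair gave 0.32 (adjusted p = 0.00608), and the 6 remaining libraries gave 0.22 (SE 0.0907, adjusted p = 0.0672), so the call was lost without the pair. Without DPT replicate 2 alone the value was -0.13 and without DMSO replicate 3 alone it was 0.70, neither of them called.

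KLF4 (ENSG00000136826, chromosome 9, 107484852 to 107490482, minus strand) is a factor of epithelial differentiation and of reprogramming to pluripotency. Its level was 101.7, 94.96, 61.95 and 97.5 CPM in DMSO replicates 1 to 4 and 99.4, 64.4, 91.1 and 89.2 CPM in DPT replicates 1 to 4. The 2 lowest values belong to the pair, and the other libraries of the groups overlapped. The log2 fold change was -0.05 (SE 0.172, adjusted p = 0.893), and -0.07 (SE 0.0541, adjusted p = 0.327) without the pair. KLF4, next to KLF6 in level, was therefore not called in either direction.

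**Figure D3:**
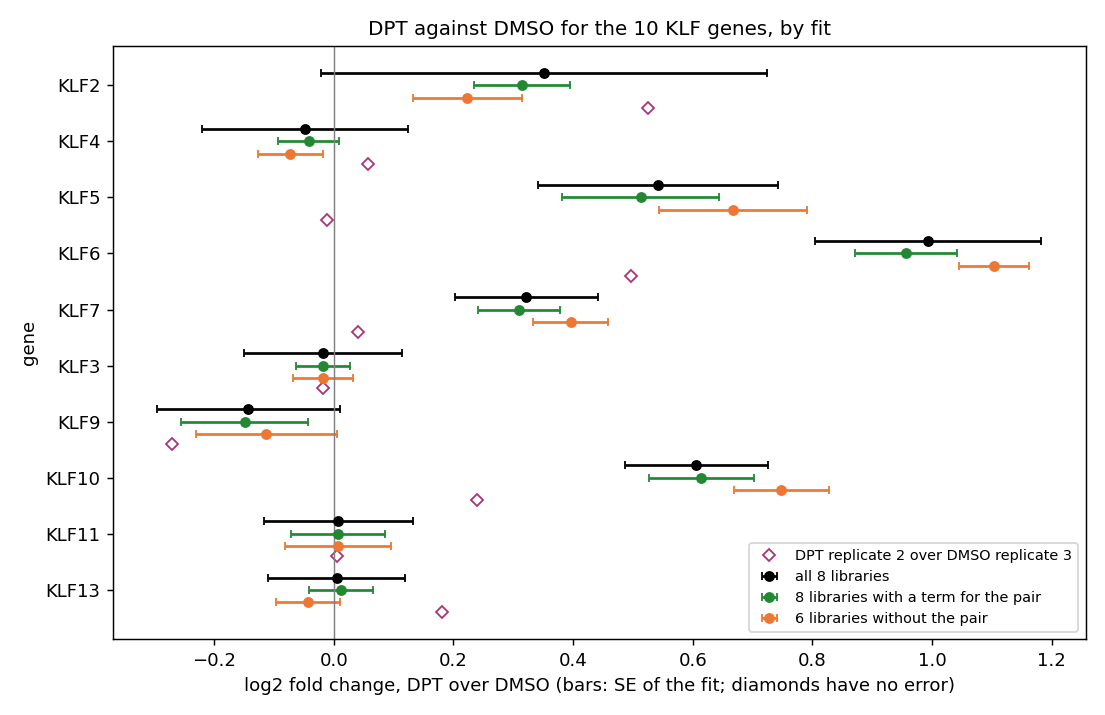
Log2 fold change (DPT over DMSO) of each KLF gene with its SE from all 8 libraries, from 8 libraries with a term for the pair and from 6 libraries. Diamonds are the single ratio within the pair and have no error. KLF2, KLF5, KLF6, KLF7 and KLF10 lie right of 0 in every fit, KLF2 with an SE (0.373) above its value (0.35) from all 8 libraries. KLF5 and KLF7 are near 0 within the pair, and KLF3, KLF4, KLF11 and KLF13 lie near 0 in every fit.

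Among the members that bind SIN3A, KLF10 rose and the others did not pass the test. KLF10 (ENSG00000155090, chromosome 8, 102648779 to 102655902, minus strand) is also called TIEG, for TGF-beta inducible early gene, and is known to slow growth. It measured 35.1, 30.3, 44.9 and 33.0 CPM in DMSO replicates 1 to 4, and 50.7, 52.98, 60.4 and 54.3 CPM in DPT replicates 1 to 4. DMSO replicate 3 was the highest control and still below every DPT library. The mean went from 35.8 ± 6.36 to 54.6 ± 4.16 CPM (n = 4 per group), 1.52-fold higher (log2 0.61, SE 0.1195, adjusted p = 0.0131, edgeR). The ratio within the pair was 1.18-fold, and without the pair the rise was 1.68-fold (adjusted p = 1.32e-06).

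KLF11 (ENSG00000172059, chromosome 2, 10042849 to 10054836, plus strand), the other TGF-beta inducible member, measured 31.6, 31.5, 24.2 and 28.8 CPM in DMSO replicates 1 to 4. In DPT replicates 1 to 4 it measured 26.8, 24.3, 33.3 and 32.2 CPM. The groups covered nearly the same range, and the log2 fold change was 0.01 ± 0.125 (SE), not called (adjusted p = 0.976). An antisense gene, AC104794.4, overlaps it and its reads may not be separated.

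KLF13 (ENSG00000169926, chromosome 15, 31326855 to 31435665, plus strand), known as an activator of CCL5 in T cells, was at 78.2 to 110.9 CPM in DMSO and 88.6 to 109.8 CPM in DPT. Its log2 fold change was 0.005 (SE 0.114, adjusted p = 0.982). KLF9 (ENSG00000119138, chromosome 9, 70384597 to 70414624, minus strand), a known target of the glucocorticoid receptor, was at 10.3 to 14.1 CPM in DMSO and 8.57 to 12.8 CPM in DPT. It had the lowest log2 fold change of the 10, -0.14 (SE 0.152), and was not called (adjusted p = 0.608).

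KLF3 (ENSG00000109787, chromosome 4, 38664196 to 38701042, plus strand), the CtBP-binding repressor that limits fat cell and red cell gene programmes, measured 98.3, 99.8, 72.0 and 95.7 CPM in DMSO replicates 1 to 4. In DPT replicates 1 to 4 it was at 93.6, 71.1, 95.5 and 101 CPM. The libraries of the pair were low to the same degree and the rest were alike (log2 fold change -0.02, SE 0.132, adjusted p = 0.948; SE 0.04997 without the pair). The antisense gene KLF3-AS1 overlaps KLF3.

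In the pair of libraries most members were low and KLF2 was high. In DMSO replicate 3, 8 of 10 members were below the mean of DMSO replicates 1, 2 and 4, the exceptions being KLF2 and KLF10 (1.37-fold above). In DPT replicate 2, 9 of 10 were below the mean of DPT replicates 1, 3 and 4, the exception being KLF2. The members' median log2 ratio was -0.29 in DMSO replicate 3 and -0.45 in DPT replicate 2 (with 0.5 CPM added to both), where all tested genes had medians of -0.004 and -0.008 and 50.4% and 50.8% of them were below. In KLF2, 3.01% of tested genes had a larger absolute log2 ratio in DMSO replicate 3 and 1.65% in DPT replicate 2. KLF5 and KLF6 were lower by log2 values of -0.21 and -0.28 in DMSO replicate 3, and by -0.89 and -0.88 in DPT replicate 2. The interferon-stimulated and mitosis lists given above moved with the same pair, and their part in these differences was not tested.

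**Figure D4:**
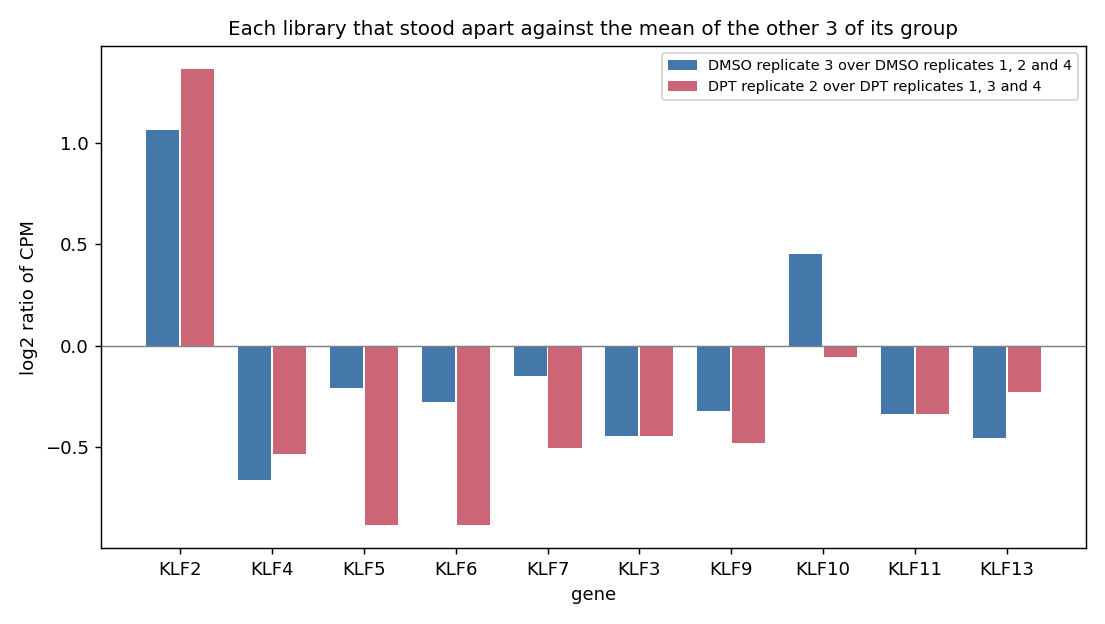
Log2 ratio of CPM in DMSO replicate 3 (blue) and DPT replicate 2 (red) to the mean of the other 3 libraries of the same group, for each KLF gene. KLF2 is above 1 in both, KLF3 is -0.44 in both, and KLF5 and KLF6 are lower in the DPT library than in the DMSO library.

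Of 17 other KLF and SP genes, 9 passed the filter, 1 rose and 0 fell, with a median log2 fold change of -0.11. KLF16, which also binds SIN3A, averaged 21.1 ± 1.54 CPM in DMSO and 27.9 ± 2.16 CPM in DPT (SD, n = 4 each) and rose 1.32-fold with no overlap (adjusted p = 0.0178, edgeR). Leaving out DMSO 1, DMSO 2, DPT 1 or DPT 3 ended this call (0.0501 to 0.0607), and so did limma on log2(FPKM + 1) (0.0654). The KLF16 call stood with a term for the pair (edgeR, adjusted p = 0.000994) and without the pair (0.00363). KLF12, a CtBP-binding repressor like KLF3, lay at 17.1 to 19.9 CPM in the DMSO libraries and 13.3 to 16.6 CPM in the DPT libraries without overlap. It was not called with all libraries (log2 -0.31, adjusted p = 0.079), and was when the pair had its own term (0.0119) or was left out (0.0316).

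SP1, the ubiquitous GC box activator, averaged 175.2 ± 23.3 CPM in DMSO and 133 ± 25.0 CPM in DPT. Its log2 fold change of -0.40 was not called with all libraries (adjusted p = 0.121) and was with the term (-0.41, adjusted p = 4.69e-06), without the pair (adjusted p = 6.51e-06) and without DMSO replicate 3 alone (adjusted p = 0.0435). SP3, which binds the same sites, was at 174.6 ± 5.46 and 174.9 ± 3.66 CPM. SP2, SP4, SP6, KLF15 and KLF17 were not called, at 42.2, 7.24, 1.04, 0.919 and 1.73 CPM in DMSO. The other 8, among them KLF1, KLF8 and KLF14, were at or below 5 counts in every library.

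Among 12 cofactors of KLF proteins 0 rose and 2 fell (list median -0.03). KAT2B, an acetyltransferase, averaged 30.9 ± 2.82 CPM in DMSO and 19.1 ± 2.24 CPM in DPT (SD, n = 4 each), and it fell by 0.69 on the log2 scale (adjusted p = 0.00413, edgeR). CTBP1, the corepressor of KLF3, fell by 0.21 on the log2 scale (adjusted p = 0.0355). Its call ended when any library outside the pair was left out (0.0553 to 0.116), with no filter (0.0543) and on log2(FPKM + 1), where the difference was -0.05. CTBP1 was still called with a term for the pair (edgeR, adjusted p = 0.0015) and without the pair (0.00185). SIN3A was at 125.8 ± 18.2 and 102.1 ± 16.3 CPM and was not called with all libraries (log2 -0.30, adjusted p = 0.202), and was if the pair had its own term (6.04e-05) or was left out (0.000129). Of the list, 0 rose and 3 fell with that term, and 2 rose and 3 fell without the pair.

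Of 6 genes on the ERK5 to MEF2 route, known to induce KLF2 and KLF4, 1 rose and 0 fell (median -0.03). MEF2A, a transcription factor at the end of that route, rose 1.23-fold (93.8 ± 3.11 and 115.5 ± 4.33 CPM in DMSO and DPT, adjusted p = 0.0109). ERK5 itself, MAPK7, was at 26.7 ± 1.68 and 22.8 ± 1.33 CPM without overlap (log2 -0.23, adjusted p = 0.0963, with 0.0301 if the pair had its own term and 0.0435 if it was left out).

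Of 9 genes on the TGF-beta route to KLF10 and KLF11, 1 rose and 0 fell (median -0.03). The receptor TGFBR2 rose 1.41-fold (316.5 ± 15.6 and 445.7 ± 45.7 CPM in DMSO and DPT, adjusted p = 0.00689, edgeR). SMAD7, an inhibitor of the pathway that KLF10 is known to repress, measured 10.5, 10.2, 17.5 and 10.9 CPM in DMSO replicates 1 to 4. In DPT replicates 1 to 4 it measured 17.9, 20.8, 17.0 and 16.0 CPM. DMSO replicate 3 was high, as in KLF10, and the groups overlapped. The gene was not called with all libraries (log2 0.54, adjusted p = 0.086), and was by DESeq2, with a term for the pair (0.56, adjusted p = 0.000357) and without the pair (6.8e-05). Those last 2 fits each called 2 genes of this list higher and 2 lower. The lower ones were SMAD3, a signal carrier of the pathway (log2 -0.26, adjusted p = 0.126 with all libraries, 0.000156 with the term and 8.1e-05 without the pair), and TGFB2, a ligand (-0.25 and 0.556, then -0.28 and 0.0127, then -0.36 and 0.00343). None of 9 ubiquitin enzymes known to act on KLF proteins was called by edgeR (1 higher and 0 lower at an unadjusted p under 0.05, and 0 by DESeq2), while 1 was higher and 2 lower with the term and 1 was higher and 0 lower without the pair.

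The glucocorticoid receptor gene NR3C1 and 3 of its targets were tested beside KLF9, and 1 rose and 1 fell. PER1, a clock gene, rose 1.47-fold to 12.3 ± 0.678 CPM (adjusted p = 0.013, edgeR), a call not made on log2(FPKM + 1) (0.132). FKBP5, a chaperone that glucocorticoids induce, fell by 0.25 on the log2 scale (adjusted p = 0.0371). Its call ended when any single library but DPT replicate 2 was removed (0.0558 to 0.11), and on log2(FPKM + 1) (0.128). FKBP5 was still called with a term for the pair (edgeR, adjusted p = 0.00221) and without the pair (0.0104).

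Of 13 genes studied as targets of KLF2 or KLF4, 7 were tested, 3 rose and 0 fell (median 0.37). CDKN1A, the cell cycle inhibitor p21, rose 2.38-fold (17.3 ± 3.07 and 41.0 ± 5.98 CPM in DMSO and DPT, adjusted p = 0.00166, edgeR). SFN, a 14-3-3 protein that holds cells before mitosis, rose 1.44-fold (54.0 ± 3.24 and 77.8 ± 10.1 CPM in DMSO and DPT, adjusted p = 0.00894). SFN was outside the rule for named genes and was chosen after its values were seen. The endothelial targets NOS3, VCAM1 and SELE were below 1 CPM on average and did not pass the filter with all libraries. DESeq2, which filters differently, called VCAM1 lower (0.882 and 0.167 CPM in DMSO and DPT, adjusted p = 0.0148). Without the pair VCAM1 passed the filter and edgeR called it lower (log2 -2.39, adjusted p = 0.00149). It had 1 to 5 counts in the DPT libraries. THBD (76.8 and 86.5 CPM in DMSO and DPT), S1PR1 (10.3 and 8.32 CPM) and EDN1 (1.02 and 1.75 CPM) were tested and not called. Without the pair S1PR1 was called lower (edgeR, adjusted p = 0.0216) and EDN1 higher (0.0459). With the term 3 genes of the list rose and 0 fell, and without the pair, where 8 were tested, 5 rose and 2 fell. CDKN1A is also a studied target of KLF6 and of p53.

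Of 10 genes studied as targets of KLF5, KLF6 or KLF7, 7 were tested, 1 rose and 1 fell (median -0.13). The cyclin CCND1 rose 1.301-fold (416.5 ± 51.6 and 541.8 ± 26.1 CPM in DMSO and DPT, adjusted p = 0.0308, edgeR). It was not called if DMSO 1, DMSO 4, DPT 1, DPT 3 or DPT 4 was left out (0.0673 to 0.0837). The CCND1 call stood with a term for the pair (edgeR, adjusted p = 1.92e-05) and without the pair (1.61e-05). TNFAIP2, a known KLF5 target, fell by 0.55 log2 (adjusted p = 0.0216). It was not called if DMSO 1, DMSO 2, DMSO 4, DPT 3 or DPT 4 was left out (0.0583 to 0.0711), or on log2(FPKM + 1) (0.0674). The TNFAIP2 call stood with a term for the pair (edgeR, adjusted p = 3.01e-07) and without the pair (8.9e-08). With the term, and also without the pair, 2 genes of the list rose and 2 fell. None of 5 genes studied with KLF3 and the SIN3A-binding members (among them LGALS3, CCL5, MAOA and FASN) was called by edgeR (1 higher and 0 lower at an unadjusted p under 0.05, 0 by DESeq2), and 1 was higher with the term and 0 without the pair.

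The genes whose centred log2 CPM profiles over the 8 libraries were nearest to that of KLF6 were B3GNT5, a glycosyltransferase, TIE1, an endothelial receptor, and SAT1, a polyamine acetylase. Their root mean square differences were 0.11, 0.11 and 0.11, against a median of 0.59 over tested genes. TIE1 measured 4.88, 5.22, 4.44 and 5.14 CPM in DMSO replicates 1 to 4 and 11.6, 5.15, 11.5 and 10.5 CPM in DPT replicates 1 to 4, with the same low DPT replicate 2 as KLF6. Its call (adjusted p = 0.0308, edgeR) ended when any library outside the pair was left out (0.0728 to 0.0956), and on log2(FPKM + 1) (0.055). TIE1 was still called with a term for the pair (edgeR, adjusted p = 0.00025) and without the pair (6.39e-06). The other endothelial markers were low, with PECAM1 at 2.22 and 2.41 CPM in DMSO and DPT and VWF at 0.184 and 0.181 CPM. CDH5, also low, was at 0.770 and 1.46 CPM and was not called with all libraries (log2 0.92, adjusted p = 0.176, edgeR). It was called higher with a term for the pair (0.87, adjusted p = 0.048) and without the pair (1.03, adjusted p = 0.0331). The SAT1 call ended without DPT 4 (adjusted p = 0.0523). Among the genes nearest to KLF10 were CPEB4, which binds RNA (0.07), and the phosphatase PTP4A1 (0.09), against a median of 0.40, and both were called higher. The nearest genes were picked for profiles like that of a called member, so their rise in DPT follows from the choice. So does the low DPT replicate 2 of TIE1.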

How the data were processed

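The deposited table gives 2 values per gene and library. The deposited expected counts are estimates (10.8% of values were not whole) and were rounded to whole numbers, and the authors' FPKM values are scaled by gene length and library size, per the file headers. The tools listed are RSEM, StringTie 1.3.1, HISAT2, fastp 0.18.0 and DESeq2, and the build is hg38, by the submitters' processing notes. What each did, the annotation and the use of strand were not given in the sources.

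The edgeR 4.0.16 package (R 4.3.3) was used with filterByExpr (minimum count 10, minimum total 15), TMM scaling and its quasi-likelihood test of DPT against DMSO on all 8 libraries, with no covariate. P-values were adjusted by Benjamini and Hochberg's method across 12648 genes. SE is the log2 fold change divided by the square root of the F statistic. CPM values are TMM-normalized, and 1 CPM is about 15 counts in the smallest library. The calls were tested on simulated data, where 100% of genes changed 2-fold or more were recovered and 5.24% of calls were false. The simulation had less spread between libraries than the real data and no pair that stood apart. So it does not test calls that depend on the pair. Alternatives were DESeq2 1.42.0, 2 other scalings, no filter, limma 3.58.1 on log2(FPKM + 1) and log2(FPKM + 0.1) for genes of a mean FPKM of at least 0.5, the replicate number as a block, a term for the pair of libraries, leaving the pair out, and leaving out each library.

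The members, lists and alternatives were chosen with earlier results of these data known. Named genes were all members, the tested KLF and SP genes, the 2 called genes of smallest adjusted p per list and direction, and the 3 nearest profiles of the called members with the largest and smallest fold change. Gene positions are from GENCODE 29 (GRCh38), matched by gene identifier for all 10 members. SIN3A, MAPK7, SMAD7, SMAD3, TGFB2, CALB2, THBD, S1PR1 and EDN1 were chosen after their values were seen. Outside the rule for named genes too are, among others, CD14, MSLN, WT1, KRT5, HP, PECAM1, VWF, CDH5, NOS3, VCAM1 and SELE. Some genes that this rule names are not reported here.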

Additional observations from a re-analysis of the deposited data

Results flagged for a closer look

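In groups of 4 libraries, a value was singled out where its gap to the nearest other value exceeded 0.829 of the group's range (Dixon's criterion). Of 20 groups, 10 genes in DMSO and in DPT, 4 had such a value, and chance gives about 1 in 20 for independent groups. These groups share the same libraries and are not independent, so no excess over chance can be read from the count. All 4 values belong to the pair of libraries that stood apart. KLF2 was at 41.5 CPM in DMSO replicate 3, where the next highest library was at 21 CPM. KLF2 was at 59.6 CPM in DPT replicate 2, where the next highest was at 24.8 CPM. KLF3 was at 72 CPM in DMSO replicate 3, where the next lowest was at 95.7 CPM, and KLF4 was at 61.95 CPM there, where the next lowest was at 94.96 CPM.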

How the results depend on the processing

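KLF members lower in DPT numbered 0 in all 17 alternatives. KLF members higher in DPT numbered 2, and 5 with the term for the pair, 4 without the pair and 2 to 4 when 1 library was left out, the 4 being without DPT replicate 2. The count of all tested genes higher in DPT was 718, and 2140 with the term, 2158 without the pair and 332 to 1183 when 1 library was left out. The count of all tested genes lower in DPT was 669, and 2156, 2169 and 311 to 1108 in the same fits, 334 on log2(FPKM + 1) and 331 on log2(FPKM + 0.1). With the replicate number as a block, 1 member (KLF10), 171 genes higher and 174 lower were called, and KLF6 had an adjusted p of 0.0672. Same-numbered libraries deviated with correlations of -0.40 to 0.21, with 0.20 and 0.21 for replicates 1 and 4, and 0 of 8 libraries correlated best with its own number. The 2 libraries that stood apart have different numbers and weigh heavily in these correlations. So they cannot show whether the numbers pair the samples. KLF6 and KLF10 were called in each of the 8 fits without 1 library (adjusted p 0.000116 to 0.0421 and 0.00138 to 0.0487). Over the 38 genes named, 553 of 640 values stayed on their side of the threshold, 73 calls were lost, 14 were gained and 0 reversed. KLF5 and KLF9, at 110 to 221 counts, have the least depth among the members.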
